A study of Homo sapiens with 30 samples.

Results

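NR2F1, NR2F2 and NR6A1 are 3 genes for nuclear receptors, and the open chromatin around them was followed from pluripotent cells to 6 early brain cultures. Their regions were all peaks, in any of 10 peak lists, that overlapped the GRCh38 body of a gene with 300 kb on each side for NR2F1 and NR2F2 and 50 kb for NR6A1. Overlapping peaks of the 10 lists were merged into regions, and a list was called open at a region where it had a peak there. This gave 360 regions of the 493444 found on chromosomes 1 to 22, X and Y, with 122 at NR2F1, 122 at NR2F2 and 116 at NR6A1.

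Nuclear receptors are transcription factors with a zinc finger domain that binds DNA and a domain that, in many members, binds a small lipophilic ligand. NR2F1 and NR2F2, also called COUP-TFI and COUP-TFII, are orphan receptors that bind direct repeats of AGGTCA, and both act in forebrain patterning and neuronal subtype choice. NR6A1, also called GCNF, is an orphan receptor known for repressing pluripotency genes such as POU5F1 when stem cells differentiate. Retinoic acid acts through the related receptors RARA, RARB and RARG.

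OmniATAC-seq, which cuts accessible DNA with the Tn5 transposase, was run on 30 libraries of 50000 cells from wild-type H1, 1 line of human embryonic stem cells. The labels give 10 groups of 3 biological replicates. Day 0 was the undifferentiated state (hPSC). Treatment with A8301, trametinib, C59 and LDN193189 gave definitive ectoderm (DE) by day 1. From DE came, by day 2, an anterior (aNE) and a posterior (pNE) neural ectoderm, both with A8301, LDN193189 and thiazovivin. The aNE medium also held the WNT secretion inhibitor C59 at 1 µM. The pNE medium held in its place TTNPB, an agonist of retinoic acid receptors, at 50 nM, with FGF2 at 20 ng/mL and the tankyrase inhibitor XAV939 at 1 µM. On day 2 each was moved to telencephalon (T), midbrain (M) or hindbrain (H) medium and taken on day 4, giving aNE_T, aNE_M, aNE_H, pNE_T, pNE_M and pNE_H. Cells taken on day 2 were plated at 37500 per square cm in both media. Cells for day 4 were plated at 75000 per square cm in the aNE medium and at 150000 in the pNE medium. On day 4 origin and plating density therefore cannot be told apart. From day 2 to day 4 plating density changed together with time and medium, and these cannot be told apart either.

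The data were 1 peak list per group with positions and no score, so no value has a replicate error and no test was made. Differences below are between lists, of unknown depth. On the main chromosomes aNE had the fewest peaks (167792) and pNE_H the most (313095). The pNE_H list was open at 60.9% of all regions and the other 9 lists at 32.0% to 46.9%. Within 10 kb of the pluripotency genes POU5F1, NANOG, PRDM14 and DPPA4 there were 36 regions, 26 of them open in hPSC and 15 to 20 on day 4. Near the posterior genes HOXA2, HOXB1, HOXB4 and EGR2, 28 to 35 of 48 regions were open in the pNE-derived lists and 18 to 20 in the aNE-derived lists. For 5 mesendoderm genes (TBXT, MIXL1, SOX17, GATA6 and FOXA2) the open regions numbered 23 to 33 of 44 in every list. Presence of a peak near a gene is not its expression.

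Promoter windows of the 3 genes are shown with the bases that lay in peaks. Sequences are RefSeq promoter windows on GRCh38.p14, from 250 bases before to 50 after a transcript start, written 5′ to 3′ on the strand of the gene. Capitals in the first and the last mark bases that lay in peaks of all 10 lists, and in the middle one bases that lay in a peak of any list.
NR2F1, chr5:93582972-93583271, plus strand: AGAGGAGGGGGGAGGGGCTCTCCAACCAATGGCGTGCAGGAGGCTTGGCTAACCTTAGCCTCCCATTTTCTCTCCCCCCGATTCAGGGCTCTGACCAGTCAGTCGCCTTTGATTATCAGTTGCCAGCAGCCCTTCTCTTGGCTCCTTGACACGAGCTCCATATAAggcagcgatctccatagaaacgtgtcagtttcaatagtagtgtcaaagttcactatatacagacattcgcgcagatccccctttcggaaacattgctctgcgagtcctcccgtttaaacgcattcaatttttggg
NR2F2, chr15:96332315-96332614, plus strand: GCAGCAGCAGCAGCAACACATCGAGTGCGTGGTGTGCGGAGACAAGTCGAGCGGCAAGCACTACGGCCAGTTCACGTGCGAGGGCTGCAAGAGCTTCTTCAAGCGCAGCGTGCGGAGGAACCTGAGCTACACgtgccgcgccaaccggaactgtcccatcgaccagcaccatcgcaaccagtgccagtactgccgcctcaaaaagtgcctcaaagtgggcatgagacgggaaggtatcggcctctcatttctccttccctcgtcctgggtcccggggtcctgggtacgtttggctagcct
NR6A1, chr9:124771262-124771561, minus strand: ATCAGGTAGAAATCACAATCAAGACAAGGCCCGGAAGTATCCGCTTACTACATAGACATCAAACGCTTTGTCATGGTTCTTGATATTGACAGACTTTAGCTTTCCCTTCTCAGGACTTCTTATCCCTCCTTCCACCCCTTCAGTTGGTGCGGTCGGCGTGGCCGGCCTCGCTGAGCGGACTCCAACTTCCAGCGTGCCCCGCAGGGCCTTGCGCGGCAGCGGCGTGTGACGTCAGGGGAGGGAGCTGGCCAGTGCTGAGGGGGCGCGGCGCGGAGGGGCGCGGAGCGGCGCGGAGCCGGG
At NR2F1, 165 of the 300 bases were in peaks of all 10 lists, and the 3′ part around the start was outside them. At NR6A1 all 300 bases were in peaks of all 10 lists. The NR2F2 window belongs to an internal transcript start, and 132 of its bases were in a peak of some list but none in all. A second NR2F2 window, chr15:96333515-96333814, also of an internal start, had a peak in 9 lists (all but pNE_T). No promoter window was matched for the NR2F2 gene start, chr15:96326046, and no region lay over that position.

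A pair of microRNA genes of the miR-181 family lies inside NR6A1, and their mature 5p strands are shown because the hairpins differed in open chromatin. Capitals mark the seed, bases 2 to 8.
hsa-miR-181a-5p, chr9:124692480-124692502: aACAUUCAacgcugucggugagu
hsa-miR-181b-5p, chr9:124693725-124693747: aACAUUCAuugcugucggugggu
Both share the seed ACAUUCA. The hairpin of MIR181A2 had no peak in any list. That of MIR181B2 lay in chr9:124693454-124693863, where hPSC had 382 bp in peaks, DE 221 bp and aNE_T 194 bp. The other 7 lists had none: aNE, aNE_M and aNE_H, and pNE with all 3 of its descendants.

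Of the 122 NR2F1 regions, hPSC was open at 43, DE at 44, aNE at 42 and pNE at 60. The day 4 numbers were 47 in aNE_T, 53 in aNE_M, 54 in aNE_H, 65 in pNE_T, 62 in pNE_M and 95 in pNE_H. The pNE list and its 3 descendants were each above the 6 other lists. As a share, pNE was open at 49.2% of them (Wilson 95% interval 40.5 to 57.9, which counts regions only) against 39.1% of all regions, while DE was at 36.1% (28.1 to 44.9) against 46.9%. From DE to aNE 8 regions (6.56%) were gained and 10 (8.2%) lost, where all regions gave 3.4% and 18.3%. From DE to pNE 27 (22.1%) were gained and 11 (9.02%) lost, where all regions gave 9.9% and 17.7%.

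At NR2F2 47 of 122 regions were open in hPSC, 50 in DE, 42 in aNE and 56 in pNE. The day 4 values were 53 in aNE_T, 55 in aNE_M, 50 in aNE_H, 60 in pNE_T, 56 in pNE_M and 99 in pNE_H. Set against the share of all regions open in the same list, aNE_T was 5.42 points over, pNE_M 4.89 and pNE_T 7.86, so the 2 origins were not separated by this measure. The pNE_H share was 81.1% (73.3 to 87.1) against 60.9% of all regions. From DE to aNE 5 regions (4.1%) were gained and 13 (10.7%) lost, and from DE to pNE 18 (14.8%) were gained and 12 (9.84%) lost, beside the same shares of all regions as above.

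At NR6A1 the order was different. Open regions numbered 64 of 116 in hPSC, 61 in DE, 45 in aNE and 49 in pNE, then 59 in aNE_T, 58 in aNE_M, 55 in aNE_H, 44 in pNE_T, 47 in pNE_M and 74 in pNE_H. The hPSC share of 55.2% (46.1 to 63.9) stood over 40.6% of all regions. Both T and M lists of pNE origin were below every aNE-derived list, and pNE_H, the longest list, was above them. From DE to aNE 6 regions (5.17%) were gained and 22 (19.0%) lost, and from DE to pNE 11 (9.48%) were gained and 23 (19.8%) lost, so that the losses and the pNE gains were close to the shares over all regions. From aNE_T to pNE_T 8 (6.9%) were gained and 23 (19.8%) lost, against 14.2% and 10.9% of all regions.

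**Figure D1:**
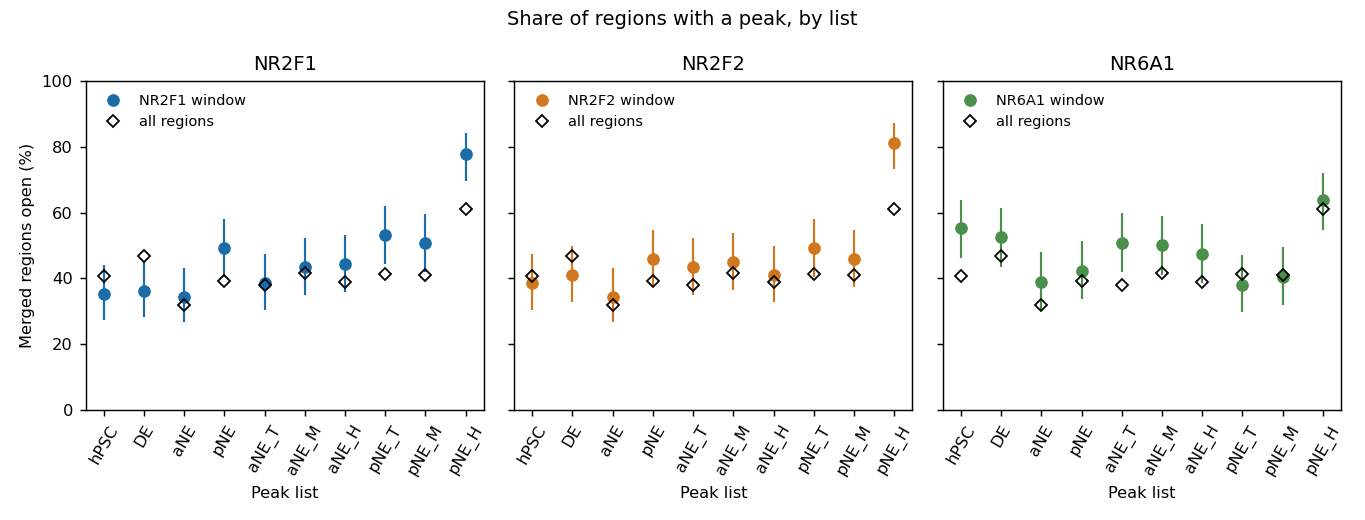
Percent of the merged regions at each locus that were open in each peak list (filled circles, with Wilson 95% intervals that count regions only) and percent of all merged regions open in the same list (open diamonds). The widest gaps between circle and diamond were upward for pNE, pNE_T, pNE_M and pNE_H at NR2F1 (49.2%, 53.3%, 50.8% and 77.9%). They were also upward for pNE_H at NR2F2 (81.1%) and for hPSC and aNE_T at NR6A1 (55.2% and 50.9%), and downward for DE at NR2F1 (36.1%). The intervals treat neighbouring regions of a list as independent and hold no replicate error, so they do not test a difference between lists.

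On day 2, aNE and pNE shared 34 open regions at NR2F1, 37 at NR2F2 and 34 at NR6A1. At NR2F1 26 regions had a peak in pNE but none in aNE, which is 21.3% of its regions (15.0 to 29.4), where 12.7% of all regions had this pattern. The opposite, a peak in aNE but none in pNE, held for 8 regions, beside 5.54% of all regions. NR2F2 had 19 pNE-only regions (15.6%) and 5 aNE-only regions (4.1%), and NR6A1 had 15 (12.9%) and 11 (9.48%). Of the 2 kinds together, pNE-only regions made up 76.5% at NR2F1, 79.2% at NR2F2 and 57.7% at NR6A1, against 69.7% of all regions. The aNE list was the shortest: with every list reduced to the 167792 widest peaks these shares were 65.2%, 58.3% and 35.0%, against 50.5%. With as many peaks drawn at random, in a single draw, they were 68.6%, 46.2% and 39.3%, against 50.4%. NR2F1 thus kept more pNE-only than aNE-only regions in both settings and NR6A1 had fewer in both. How far another draw would move these shares was not tested.

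The pNE-only regions at the COUP-TF genes were mostly absent from the earlier lists. At NR2F1 18 of the 26 (69.2%) and at NR2F2 13 of the 19 (68.4%) were closed in both hPSC and DE, against 53.6% of all pNE-only regions. At NR6A1 it was 7 of 15 (46.7%). Of the 26 at NR2F1, 22 were open again in pNE_H (84.6%, against 72.9% of all pNE-only regions), 14 in pNE_M (53.8%, against 48.0%) and 11 in pNE_T (42.3%, against 41.5%). They were also reached from the other origin, since 15 were open in aNE_M, 15 in aNE_H and 10 in aNE_T. At NR2F2 16 of the 19 were open in pNE_H, and 12 in each of aNE_M and aNE_H. The same comparison over all pNE-only regions gave 63.9% in aNE_M and 60.8% in aNE_H, so the shares of 57.7% at NR2F1 and 63.2% at NR2F2 in both lists were close to those of the whole lists.

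**Figure D2:**
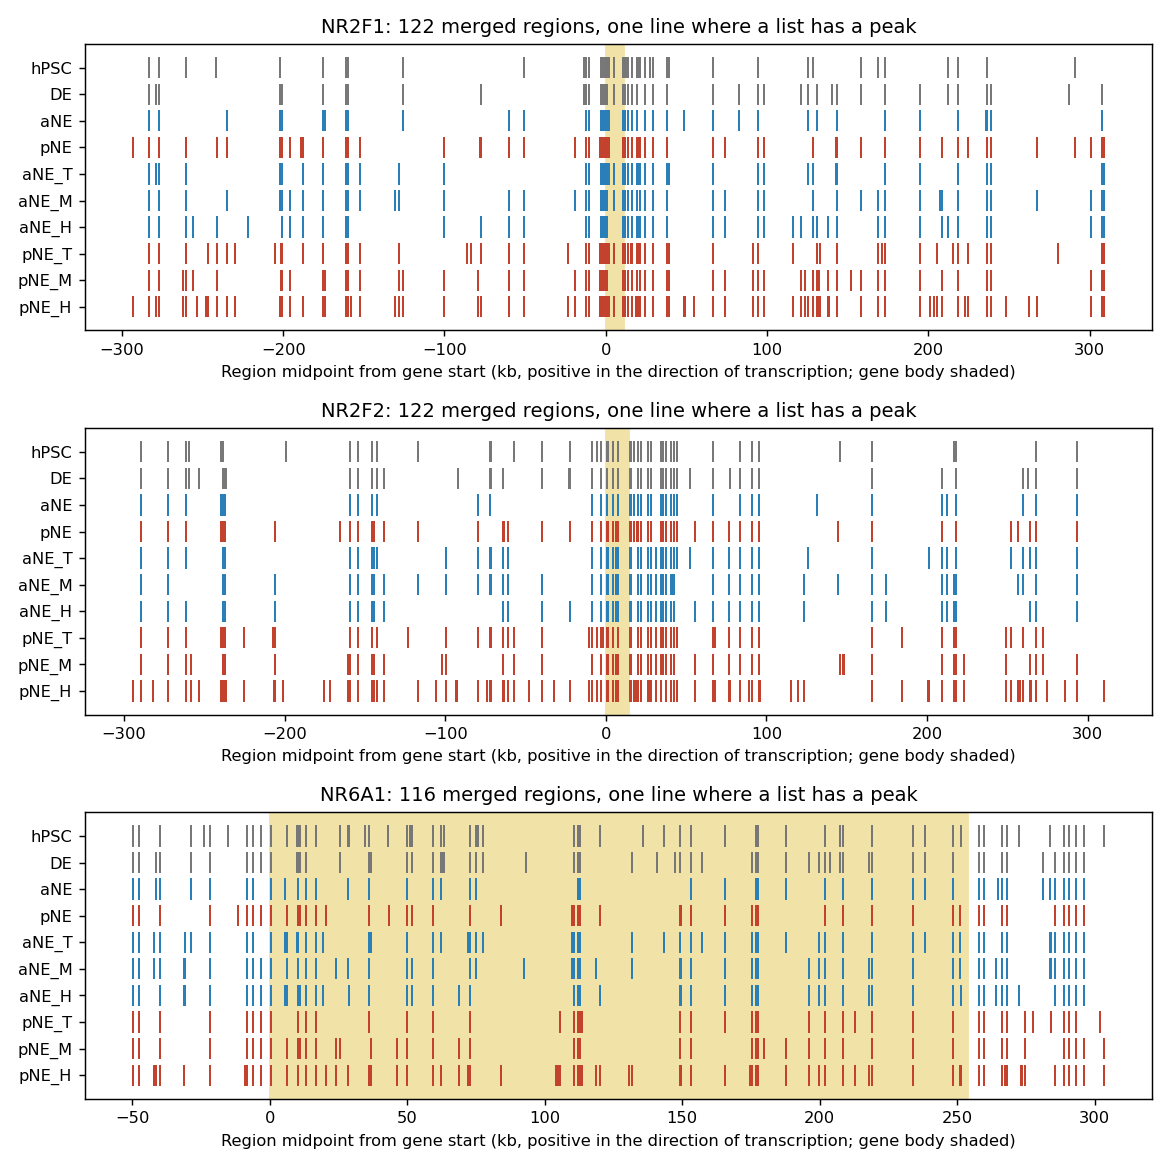
Merged regions by list at NR2F1 (upper), NR2F2 (middle) and NR6A1 (lower), placed by the distance of their midpoint from the gene start in kb, positive in the direction of transcription. A line stands for a peak of that list; grey marks hPSC and DE, blue aNE and its descendants, red pNE and its descendants, and shading the gene body. NR2F1 and NR2F2 have 122 regions each over a wide flank, and 78 of the 116 regions at NR6A1 lie in the gene.

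Within the NR2F1 gene body, chr5:93583222-93594611, there were 4 regions, 2 of them open in all 10 lists. The promoter region, chr5:93582750-93583199, was open in every list with 338 to 440 bp in peaks. The region 1.03 kb after the start, chr5:93583933-93584564, had 238 bp in DE and 451 to 614 bp in the other 9 lists. The next, chr5:93584983-93585631, held 589 bp in hPSC, 384 bp in aNE, 313 bp in pNE, 220 bp in aNE_T, 298 bp in pNE_T and 617 bp in pNE_H, and none in DE, aNE_M, aNE_H or pNE_M. At 4.94 kb, chr5:93587663-93588653 had 839 bp in hPSC, 531 bp in DE, 215 bp in aNE_T, 456 bp in aNE_M, 143 bp in pNE_T and 991 bp in pNE_H. Both day 2 lists, aNE_H and pNE_M had no peak there. The RefSeq window of a second NR2F1 start, chr5:93586849-93587148, had no peak in any list.

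Upstream of NR2F1, in and beyond the antisense gene NR2F1-AS1, lay the widest of the pNE-only regions. The first, chr5:93341659-93343136, 240.8 kb upstream, had 134 bp in pNE, 233 bp in aNE_H, 605 bp in pNE_T, 707 bp in pNE_M and 1478 bp in pNE_H. The other 5 lists had none, so aNE_H was the only aNE-derived list with a peak there. At 187.9 kb upstream, chr5:93394606-93395979 had 268 bp in pNE and 1282 bp in pNE_T, with 185 to 350 bp in the 3 aNE-derived lists, 510 bp in pNE_H and none in pNE_M. The third, chr5:93430115-93431113, 152.6 kb upstream inside NR2F1-AS1, had 499 bp in pNE, 531 to 976 bp in the pNE-derived lists, 168 bp in aNE_T and 128 bp in aNE_M. None of the 3 had a peak in hPSC, DE or aNE. The widest region open in all 10 lists, chr5:93571996-93574197, 10.1 kb upstream, had 1006 to 1852 bp and its 3 highest values in the pNE-derived lists.

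A region 3.89 kb upstream of NR2F1, chr5:93579161-93579499 in NR2F1-AS1, was open in pNE (126 bp), pNE_T (258 bp), pNE_M (274 bp) and pNE_H (339 bp) and in no other list. It was 1 of 2 regions at NR2F1 that were open in all 3 pNE-derived and no aNE-derived list. Over all regions 2.33% had that pattern, against 1.64% here. No region at NR2F1 had the converse pattern, all aNE-derived and no pNE-derived lists, which 0.633% of all regions had. The 10-list patterns were also read 1 by 1. Only pNE, aNE_M, aNE_H, pNE_M and pNE_H were open at 0.474% of all regions, and at none of those of NR2F2 and NR6A1. At NR2F1 4 regions had this pattern. One of them, chr5:93387581-93387840, 195.5 kb upstream, held 155 bp in pNE, 218 bp in aNE_M, 233 bp in aNE_H, 163 bp in pNE_M and 157 bp in pNE_H, and both T lists had none. Open in all 4 M and H lists and neither T list were 4 of 122 regions at NR2F1 (3.28%), 1 at NR2F2 and 0 of 116 at NR6A1, beside 1.5% of all regions. This pattern was chosen after the region patterns were seen.

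**Figure D3:**
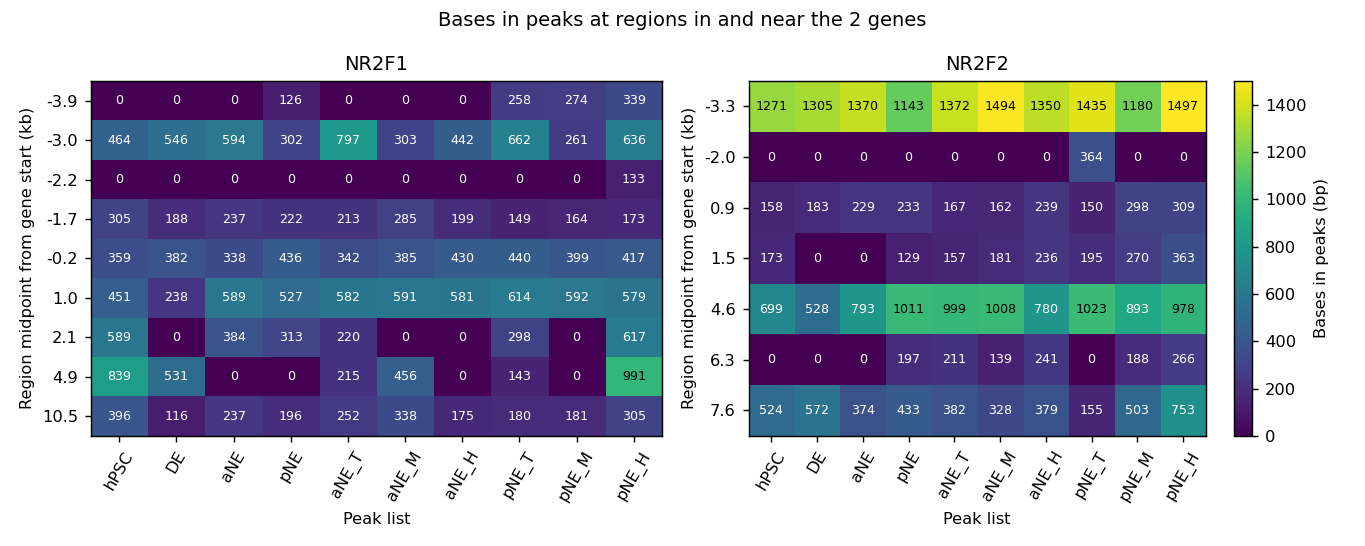
Bases in peaks (colour and printed value, bp) for each region from 5 kb upstream of the gene start to the gene end at NR2F1 (left) and NR2F2 (right), by list; rows are region midpoints in kb from the gene start. Rows without a 0 are open in all 10 lists; at NR2F1 the row at -3.9 kb is filled for pNE and its descendants, and at NR2F2 the row at 6.3 kb is empty in hPSC, DE, aNE and pNE_T.

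In the NR2F2 gene body, chr15:96326046-96340263, 3 of 5 regions were open in all 10 lists. The widest of them, chr15:96330119-96331192, had 528 bp in DE, 699 bp in hPSC and 780 to 1023 bp in the 8 later lists. The region that overlapped the window of the internal start shown above, chr15:96332181-96332446, ended before that start. It had no peak in hPSC, DE, aNE or pNE_T. It held 197 bp in pNE, 211 bp in aNE_T, 139 bp in aNE_M, 241 bp in aNE_H, 188 bp in pNE_M and 266 bp in pNE_H. Over the start of the antisense gene NR2F2-AS1, chr15:96327320-96327706 lacked a peak only in DE and aNE, and had 129 to 363 bp in the other 8 lists. The microRNA gene MIR1469 lay in chr15:96333199-96334042, open in all 10 lists with 155 bp (pNE_T) to 753 bp (pNE_H).

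The widest pNE-only region of NR2F2, chr15:96285425-96286916, lay 39.9 kb upstream. It held 312 bp in hPSC, 599 bp in DE and 395 bp in pNE, then 817 bp in aNE_M, 829 bp in aNE_H, 585 bp in pNE_T, 541 bp in pNE_M and 1423 bp in pNE_H. Of the day 2 and day 4 lists, aNE and aNE_T had no peak there. At 76.4 kb downstream, chr15:96402175-96402790 had no peak in hPSC, DE or aNE, 243 bp in pNE and 199 to 616 bp in all 6 day 4 lists. A region 31.1 kb downstream, chr15:96356944-96357402, had no peak before day 4 and 227 to 445 bp in the 6 day 4 lists. These were the 2 regions at NR2F2 closed in hPSC and DE and open in all day 4 lists, where NR2F1 had 1, NR6A1 0 and all regions 1.1%.

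At NR2F2 the regions that separated the origins were 2 (1.64%) and 1 (0.82%) of 122, near the 2.33% and 0.633% of all regions. Open in all 3 pNE-derived and no aNE-derived lists were chr15:96268522-96269522, 57.0 kb upstream, with 916 bp in pNE_T, 680 bp in pNE_M, 463 bp in pNE_H and also 288 bp in hPSC, and chr15:96574911-96575217, 249.0 kb downstream, with 219 to 287 bp. The reverse, 1 region, was chr15:96538550-96538955, 212.7 kb downstream, with 406 bp in aNE and 126 to 232 bp in its 3 descendants. It had no peak in pNE or a pNE-derived list.

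Open in both T lists and closed in aNE_H and pNE_M were 7 of 122 regions at NR2F2 (5.74%). NR2F1 had 2 of 122 and NR6A1 1 of 116, beside 2.49% of all regions. This pattern too was chosen after the region patterns were seen. A cluster of 3 among the 7 lay 71.7 to 79.9 kb upstream in NR2F2-AS1. The outermost of these, chr15:96245523-96246792, had 1270 bp in pNE_T and 531 bp in aNE_T, against 335 bp in pNE_H, 251 bp in aNE_M, 165 bp in aNE and 132 bp in pNE. The 142.3 kb upstream region chr15:96183174-96184342 had 455 bp in hPSC, 391 bp in DE, 460 bp in aNE, 384 bp in aNE_T, 989 bp in pNE_T and 853 bp in pNE_H, with no peak in the other 4 lists. All 7 were open in the hindbrain list pNE_H as well, and 4 of them in aNE_M, so they did not separate T from the other media.

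The NR6A1 gene spans 254.0 kb, chr9:124517275-124771311 on the minus strand. Its start lay in a region of 2822 bp, chr9:124769513-124772334, that was open in all 10 lists with 1609 bp (aNE_H) to 2538 bp (aNE) in peaks, the widest of the 3 loci. In the gene body 43 of 78 regions were open in hPSC, 42 in DE, 25 in aNE, 32 in pNE, 39 in aNE_T, 36 in aNE_M, 35 in aNE_H, 26 in pNE_T, 30 in pNE_M and 49 in pNE_H. Open in hPSC or DE and in no later list were 14 regions, 12 of them inside the gene, a share of 12.1% against 12.9% of all regions. NR2F1 had 7 such regions (5.74%) and NR2F2 5 (4.1%). The widest at NR6A1, chr9:124630339-124630634, was open in DE alone.

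The widest aNE-only region at NR6A1, chr9:124799561-124800270, lay 28.6 kb upstream in OLFML2A. It held 423 bp in hPSC, 701 bp in DE, 370 bp in aNE and 181 bp in aNE_T and was closed in every other list. Inside the gene, chr9:124583283-124583940 held 371 bp in hPSC, 518 bp in DE, 125 bp in aNE, 194 bp in aNE_T, 467 bp in pNE_M and 657 bp in pNE_H. One region was open in all aNE-derived and no pNE-derived lists, chr9:124801991-124802250 in OLFML2A, with 174 to 194 bp. The one with the reverse pattern, chr9:124496250-124496844, lay 274.8 kb downstream of the start in NR5A1, with 350 to 595 bp. NR5A1, a receptor of steroid-producing tissues that neighbours NR6A1, had no peak in its RefSeq promoter window in any list.

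Regions open in all 10 lists numbered 24 of 122 at NR2F1 (19.7%), 28 of 122 at NR2F2 and 29 of 116 at NR6A1 (25.0%), against 16.5% of all regions. Regions open in 1 list only numbered 35, 40 and 29, or 28.7%, 32.8% and 25.0%, against 33.5%. The pNE_H list alone held 13 of these at NR2F1 (10.7%), 25 at NR2F2 (20.5%) and 9 at NR6A1 (7.76%), against 10.6% of all regions. The hPSC list alone held 4 (3.28%), 1 (0.82%) and 7 (6.03%), against 4.63%. Regions open in pNE_T alone numbered 8 at NR2F1 (6.56%, against 3.45% of all regions), 3 at NR2F2 and 2 at NR6A1. Region width rose with the number of lists at each locus, with medians of 158 bp for 1 list and 796 bp for all 10 at NR2F1. Over all regions these medians were 161 and 871 bp. A region joins the overlapping peaks of its lists, so a region with more lists tends to be wider.

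**Figure D4:**
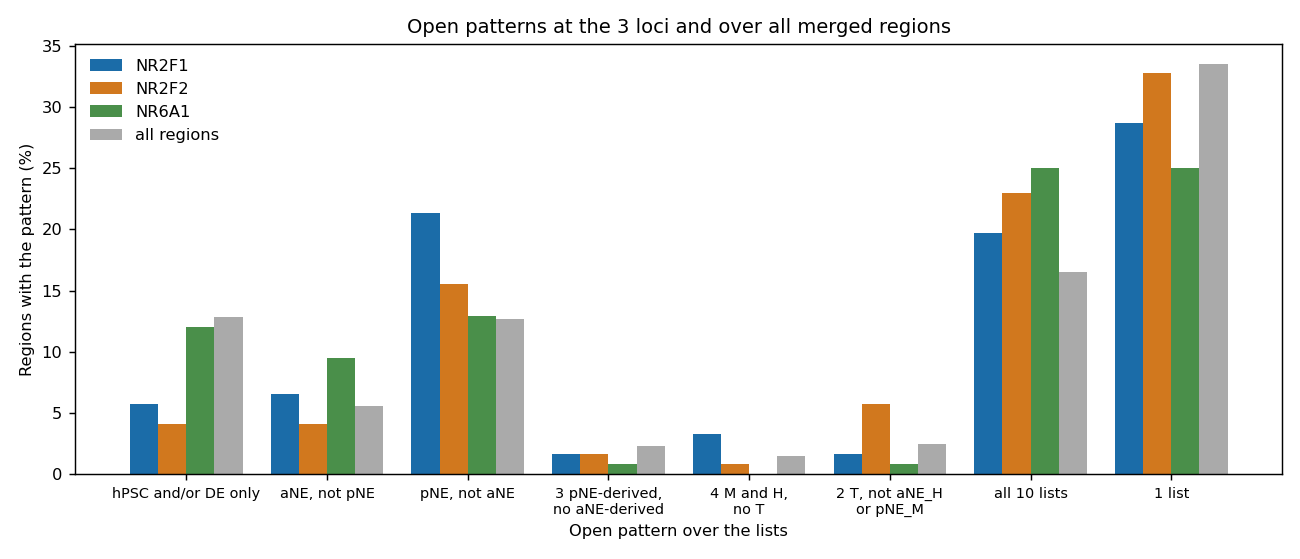
Percent of merged regions with each open pattern at NR2F1, NR2F2 and NR6A1 and over all 493444 regions (grey); bars start at 0 and have no error bar because each pattern is a count within the 10 lists. The pNE, not aNE bar is 21.3% at NR2F1, 15.6% at NR2F2 and 12.9% at NR6A1, with 12.7% in grey.

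Since pNE_H was long, covered length was also set relative to the whole list, as bp in peaks in the window per Mb in peaks in the list. At NR2F1 this was 221 in hPSC, 189 in DE, 246 in aNE and 280 in pNE, then 230 (aNE_T), 248 (aNE_M), 277 (aNE_H), 308 (pNE_T), 287 (pNE_M) and 316 (pNE_H). All 3 pNE-derived values were above all 3 aNE-derived ones, with a ratio of means of 1.21. At NR2F2 the values were 271, 243, 308 and 307 up to day 2, then 302, 296 and 308 in the aNE-derived and 345, 324 and 357 in the pNE-derived lists, a ratio of 1.13. This separation, pNE-derived above, held for 6.75% of 19839 gene windows with 300 kb flanks. The converse, aNE-derived above, held for 37.2%. Of these windows 94.9% had a lower day 4 ratio than NR2F1 and 90.5% a lower one than NR2F2, with a median of 0.915. The groups overlapped at NR2F1 with only the widest peaks of each list (1.18) and at NR2F2 with 100 kb flanks (1.08).

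At NR6A1 the relative lengths were 299 in hPSC, 260 in DE, 289 in aNE and 266 in pNE, then 292, 272 and 254 in aNE_T, aNE_M and aNE_H and 236, 252 and 252 in pNE_T, pNE_M and pNE_H. All aNE-derived values were above all pNE-derived ones, with aNE_H (254) next to pNE_M and pNE_H (252 each) and a ratio of 0.904. In 3 of the 6 other settings tried the NR6A1 groups overlapped, at ratios of 0.9125 to 0.919. With 50 kb flanks 27.7% of 19273 gene windows had this order and 5.66% the other, and the median ratio was 0.906, so NR6A1 was near the middle of all genes. On day 2 the ratio of pNE to aNE was 1.14 at NR2F1, 0.997 at NR2F2 and 0.923 at NR6A1, where medians were 0.933 for the wide windows and 0.922 for the narrow ones. With 50 kb flanks the day 2 ratio of NR2F1 was 0.926, below 1 and near the median of such windows, and that of NR2F2 was 1.03. In those flanks NR2F1 kept the day 4 separation, at a ratio of 1.12, and NR2F2 did not, at 0.990.

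**Figure D5:**
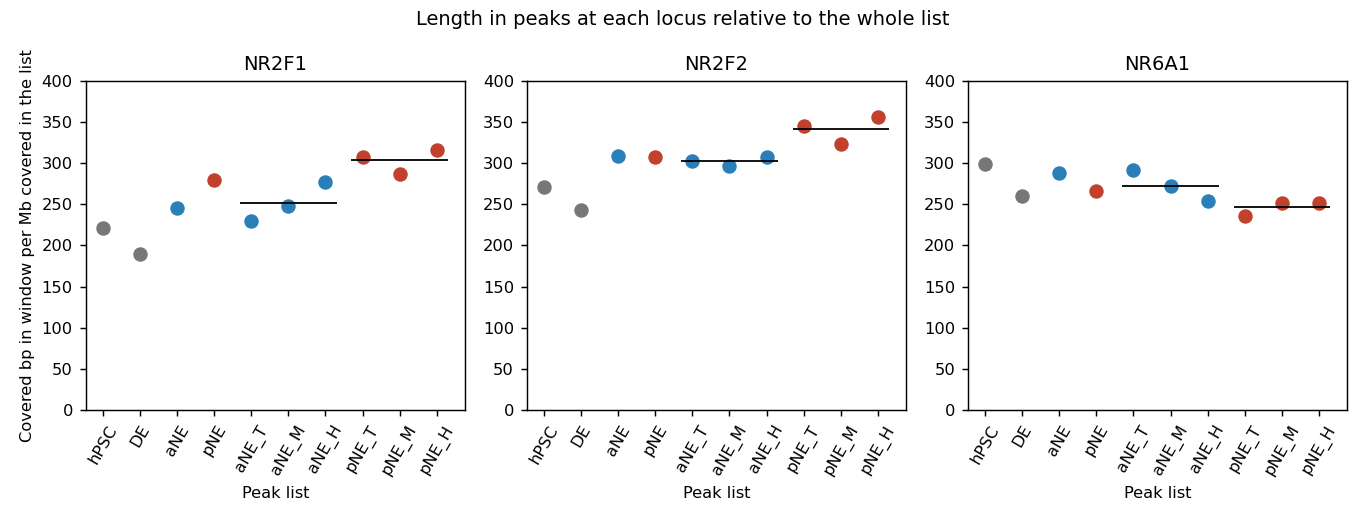
Bases in peaks in each gene's window per Mb in peaks in the whole list (y axis from 0), 1 point per list; grey is hPSC and DE, blue aNE and its descendants, red pNE and its descendants, and horizontal lines are means of 3 day 4 lists. The red day 4 points lie above the blue at NR2F1 (287 to 316 against 230 to 277) and NR2F2 (324 to 357 against 296 to 308) and below them at NR6A1 (236 to 252 against 254 to 292).

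The other 45 human nuclear receptor genes were described within 50 kb of each gene. More pNE-only than aNE-only regions were found at 28 of them (62.2%), beside 60.2% of 19273 genes, and fewer at 9. RARB, a retinoic acid receptor and itself a retinoic acid target, had the widest gap, with 27 pNE-only and 5 aNE-only regions. It was followed by the orphan receptor ESRRG (27 and 9), the mineralocorticoid receptor NR3C2 (18 and 5), the estrogen receptor ESR1 (16 and 4) and RORB (13 and 3). In the other direction RXRA, the shared partner of many receptors, had 6 and 9, and NR5A1 and the liver X receptor NR1H2 had 1 and 4 each. NR1D2, NR1H3, NR1H4, NR2C1, RARA and RARG were tied next, each with 1 more aNE-only region. These gaps are differences in counts, and a longer gene has a wider window, which was not adjusted for. Over all regions pNE-only ones made up 69.7% of the 2 kinds together. In the same narrow window NR2F2 had 6 pNE-only and 0 aNE-only regions and NR2F1 had 4 and 1. On day 4 RARB and ESRRG were the 2 of 45 with all pNE-derived lists above, an order that 5.66% of all 19273 gene windows had. All aNE-derived lists were above at 7 of 45, beside 27.7% of all these windows.

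The windows held 37 annotated genes in all. That of NR2F1 took in NR2F1-AS1 with 28 regions and POU5F2, a POU domain factor, with 3. That of NR2F2 held no other protein-coding gene and 39 regions in NR2F2-AS1. Promoter windows were matched for 19 of the 37 symbols, 27 windows in all. The receptor motif AGGTCA, searched on both strands, was in 1 of the 27 windows (POU5F2) and in 13.8% of 35116 promoter windows. It was in none of the 5 windows of NR2F1, NR2F2 and NR6A1, nor were its direct repeats with 0, 1, 2 or 5 bases between, which says only that these letters were not in these windows.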

How the data were processed

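The deposited files are 10 peak lists, 1 per group, and their values are start and end positions in 3 columns, made by the authors, with no score or summit. Per the submitters' processing notes Bowtie2, MACS2 and bedtools were among the tools and hg38 the build. Versions, thresholds and how the 3 replicates were combined are not given in the sources used here, and a threshold that differed between lists would move every count.

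Peaks were merged where they overlapped by at least 1 bp, with lists read as pooled over replicates. Gene positions, promoter windows and microRNAs came from RefSeq GRCh38.p14 tables. Peak sequences and exons were not used here. The members and lists were chosen with earlier results of these data known. Named genes and regions were the 3 members, genes in their windows, the 5 other nuclear receptors with the largest day 2 difference each way, and the 3 widest regions of each pattern; other regions named were chosen after their values were seen. In the direction of more aNE-only regions ties left 9 genes named. Gene windows for the background came from 20037 protein-coding symbols, without those that had no peak in some list. Merging and patterns were tested on simulated lists. Python 3.11.15 with numpy 2.4.6, pandas 2.3.3 and statsmodels 0.14.6 was used. Results for 1 neighbouring gene are not reported here.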

Additional observations from a re-analysis of the deposited data

Results flagged for a closer look

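The change from telencephalon to hindbrain medium went in opposite directions in the 2 origins for 3 values, and the difference was not tested, since each origin has 1 list per medium. At NR2F2 open regions changed by -3 from aNE_T (53) to aNE_H (50) and by 39 from pNE_T (60) to pNE_H (99). At NR6A1 they changed by -4 from aNE_T (59) to aNE_H (55) and by 30 from pNE_T (44) to pNE_H (74). Over all regions the share open was 38.0% in aNE_T and 38.9% in aNE_H, but 41.3% in pNE_T and 60.9% in pNE_H. Relative to the whole list, covered length at NR6A1 changed by -37.9 bp per Mb from aNE_T (292) to aNE_H (254) and by 16.0 from pNE_T (236) to pNE_H (252). The part of the list's length in the counts was not tested.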

How the results depend on the processing

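Of 90 values under another setting, 15 results with 6 settings each, 58 kept within a factor of 1.5 or kept the day 4 order, and 32 moved. None of the day 4 ratios among these 90 values changed side of 1, but with 50 kb flanks, outside these settings, that of NR2F2 was 0.990 (1.13 as reported). Counts of pNE-only or aNE-only regions are on day 2, and pNE-derived-only or aNE-derived-only regions are open in all 3 lists of that origin on day 4 and none of the other. When at least 50% of a region had to lie in peaks, pNE-derived-only regions were 4 at NR2F1 and 4 at NR2F2 (2 each as reported), the aNE-derived-only region of NR2F2 was gone (0), and the ratio at NR6A1 was 0.919 with overlapping groups. With the widest 167792 peaks of each list, pNE-only regions were 15 at NR2F1 and 7 at NR6A1, and aNE-only regions 10 at NR2F2. In that setting aNE-derived-only regions were 1 at NR2F1, 0 at NR2F2 and 3 at NR6A1, pNE-derived-only 1 at NR2F1, and the groups overlapped at NR2F1 (ratio 1.18) and NR6A1 (0.9125). With as many random peaks, from the single draw, aNE-only regions were 14 at NR2F2 and 17 at NR6A1, and pNE-only 12 at NR2F2. In that draw aNE-derived-only regions were 0 at NR2F2 and NR6A1, and pNE-derived-only 0 at NR2F1, 1 at NR2F2 and 0 at NR6A1. The NR6A1 ratio was 0.917, with overlap. Fixed windows of 500 bp left 0 aNE-derived-only regions at NR6A1. With 100 kb flanks, NR2F1 had 2 aNE-only and 8 pNE-only regions, NR2F2 had 1 and 10, aNE-derived-only and pNE-derived-only regions at NR2F2 were 0 and 1, and the NR2F2 groups overlapped (1.08); there are fewer regions in that window. Leaving out the pNE_H list, chosen after seeing the data, gave 4 pNE-derived-only regions at NR2F2 and 3 aNE-derived-only regions at NR6A1. For the other settings the cause was not tested. No paired analysis was possible because each group has 1 peak list, and for the same reason no replicate could be left out. The day 4 counts by origin are 2 or fewer at every gene, and read depth, which limits which peaks a caller finds, is not in the lists.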
